A study of Mus musculus with 12 samples.

Results

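The transcripts described here encode the chains of the MHC class I molecule and Nlrc5, the transactivator of their genes. They were chosen by gene symbol, as the rows for B2m, H2-K1, H2-D1, H2-T23, H2-M3 and Nlrc5 in the deposited expression tables. All 6 were found among the 15002 genes listed, and all 6 passed the filter on low counts that left 11900 genes for testing.

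IEC4.1 cells, a cell line of mouse intestinal epithelial origin labelled WT, were sequenced in 4 groups of 3 libraries. The siR_Ctrl and siR_Ctrl + IFN-γ cells had received a scrambled siRNA, and the siR_Nostrill and siR_Nostrill + IFN-γ cells pooled siRNAs that target Nostrill, a lncRNA, so that every group was transfected. The sample labels give 24 h for each library, whereas the study's description of this experiment has IFN-γ at 1 ng/ml for 4 h, begun after transfection. The tables list mRNAs, Nostrill was not analysed here, and so the depth of the knockdown is unknown. The 3 libraries of a group are described as biological triplicates of one line. The labels do not say that they were separate cultures, so p-values measure the spread between these libraries, which may be technical.

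A class I molecule is a heavy chain that pairs with β2-microglobulin, the light chain encoded by B2m, and holds a short peptide at the cell surface for CD8+ T cells or NK cells to inspect. H2-K1 and H2-D1 encode the classical heavy chains, which present many different peptides. H2-T23 encodes Qa-1, a nonclassical heavy chain that is read by the CD94/NKG2 receptors, and H2-M3 encodes a nonclassical heavy chain that presents N-formylated peptides. IFN-γ induces the transcription factor Irf1 as well as Nlrc5, and Nlrc5 is recruited to a shared upstream module of the class I genes by factors that bind its X and Y boxes (RFX, CREB/ATF and NF-Y). Intestinal epithelial cells are known to raise class I expression in response to IFN-γ.

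The promoters of these genes are shown because Nlrc5 acts there and because all 6 transcripts rose with IFN-γ in siR_Ctrl cells. RefSeq windows of GRCm38.p6, from 250 bases before to 50 after a gene start, were at hand for 5 of the 6 genes. Stretches of them follow 5′ to 3′ on the strand of the gene, for H2-K1 (chr17:34000325-34000468, minus strand), H2-D1 (chr17:35262913-35263055, plus), H2-M3 (chr17:37270095-37270227, plus), B2m (chr2:122147540-122147648, plus) and H2-T23 (chr17:36032739-36032835, minus). Capitals mark, on either strand, GGNGATTCC (letters of an NF-κB site), TTTCNNTT (the letters that IRF proteins recognise), TGACG (the core of the X2 box, which CREB/ATF proteins bind) and ATTGG (the Y box, which NF-Y binds, read CCAAT on the other strand).
H2-K1: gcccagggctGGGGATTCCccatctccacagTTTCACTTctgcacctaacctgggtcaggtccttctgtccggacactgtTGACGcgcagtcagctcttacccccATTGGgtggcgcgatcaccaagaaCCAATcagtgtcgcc
H2-D1: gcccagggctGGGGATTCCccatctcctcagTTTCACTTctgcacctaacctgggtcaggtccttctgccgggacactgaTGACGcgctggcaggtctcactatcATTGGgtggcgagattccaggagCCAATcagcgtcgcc
H2-M3: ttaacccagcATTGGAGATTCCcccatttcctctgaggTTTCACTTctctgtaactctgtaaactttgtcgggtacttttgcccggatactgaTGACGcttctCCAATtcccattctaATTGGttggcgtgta
B2m: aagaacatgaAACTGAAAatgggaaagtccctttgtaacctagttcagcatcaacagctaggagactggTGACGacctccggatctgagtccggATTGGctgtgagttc
H2-T23: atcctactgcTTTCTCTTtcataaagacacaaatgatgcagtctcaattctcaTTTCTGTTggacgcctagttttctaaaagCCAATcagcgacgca

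In H2-K1, H2-D1, H2-M3 and B2m, TGACG was followed after exactly 20 bases by ATTGG on the strand of the gene. TGACG began at -41, -101, -46 and -78 from the gene start in these 4 genes, and ATTGG at -16, -76, -21 and -53. RefSeq gives H2-K1 more than 1 start: these positions count from that of the first of its 2 windows, from the other TGACG is at -55 and ATTGG at -30, and both starts lie inside the annotated span of the gene. The same pair with the same spacing, on either strand, was present in 31 of 32851 promoter windows (0.0944%), which belonged to 27 gene symbols. The spacing was itself taken from these windows, and among the other H2 class I genes H2-Q7 held TGACG at -64 and ATTGG at -40, a spacing shorter by 1 base, along with GGGGATTCC and TTTCACTT. Each set of letters alone was far more common, with GGNGATTCC in 0.779% of windows, TTTCNNTT in 23.9%, TGACG in 20.8% and ATTGG in 37.4%. GGNGATTCC was found in H2-K1, H2-D1 and H2-M3 and TTTCNNTT in all 5 windows. In the H2-M3 stretch the first ATTGG and GGAGATTCC share their letters in part. The H2-T23 window held TTTCNNTT at 2 places and CCAAT but not TGACG. The letters, like the spacing, were chosen after the windows had been read, and a match is a description of sequence.

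On the reference chromosomes of GRCm38.p6, B2m (gene ID 12010) lies on chromosome 2 from 122147687 to 122153082 and Nlrc5 (gene ID 434341) on chromosome 8 from 94434335 to 94527272. The heavy chain genes lie in the H2 complex on chromosome 17, with H2-K1 (gene ID 14972) from 33996012 to 34000619, H2-D1 (gene ID 14964) from 35263094 to 35267497, H2-T23 (gene ID 15040) from 36029977 to 36032701 and H2-M3 (gene ID 14991) from 37270234 to 37274485. In the deposited tables, however, all 4 heavy chain genes were placed on alternate scaffolds, 3 different ones, as were 807 of the 15002 genes in all (alternate or unplaced). Each symbol had a single row, so no second row on chromosome 17 was left out of its value.

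The estimated read counts of B2m, H2-M3 and Nlrc5 were whole numbers (within 0.005) in all 12 libraries. Those of H2-K1 and H2-T23 were whole in 0 libraries and that of H2-D1 in 1, as can happen when reads that fit several places are divided among them. Which genes or scaffolds shared those reads cannot be read from the tables, so the levels of these 3 heavy chains are uncertain to that extent, and no source used here names the strain of the line, which decides its class I alleles.

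Between 17824306 and 19093204 reads per library were counted on genes, and the 6 transcripts held from 0.0544% to 0.156% of them. The sum of FPKM differed between libraries, from 570935 to 794809, while TPM summed to between 999931 and 1000000. Levels are therefore given as TPM, which is scaled for transcript length, and tests were run on the counts. Of 10 epithelial markers 6 were listed, and 5 of those (Krt7, Krt8, Krt18, Vil1 and Cdx2) stayed below 1 TPM in every library, with Krt19 between 1.41 and 3.75 TPM. Epcam and Cdh1 were not analysed here. Of 6 mesenchymal markers, 5 were above 1 TPM in every library, namely Vim (2051 to 3076 TPM), Col1a1 (221 to 552), Col1a2 (162 to 355), Col3a1 (53.9 to 157) and Pdgfra (9.86 to 41.6), and Thy1 was at most 0.15 TPM, so the epithelial label was not borne out by the markers that could be read. Of the 4 leukocyte markers listed, 3, among them Ptprc and Lyz2, stayed below 1 TPM in every library, while Cd68 was at 1.27 to 3.20 TPM, and the endothelial markers Pecam1 and Cdh5 stayed below 1 TPM.

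The light chain was the most abundant of the 6 transcripts in siR_Ctrl cells. B2m stood at 447, 411 and 414 TPM in the 3 siR_Ctrl libraries, and at 416, 364 and 439 TPM in the siR_Nostrill libraries. With IFN-γ it stood at 714, 627 and 767 TPM in siR_Ctrl cells and at 947, 1005 and 1085 TPM in siR_Nostrill cells. The groups with and without IFN-γ did not overlap, and neither did the 2 groups with IFN-γ.

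H2-K1 was the most abundant heavy chain, with 325, 304 and 337 TPM in siR_Ctrl cells and 390, 372 and 398 TPM in siR_Nostrill cells. With IFN-γ it reached 519, 528 and 571 TPM in siR_Ctrl cells and 568, 577 and 593 TPM in siR_Nostrill cells. Without IFN-γ every siR_Nostrill library was above every siR_Ctrl library, whereas with IFN-γ the ranges overlapped.

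H2-D1 was present at 125, 125 and 134 TPM in siR_Ctrl cells and at 148, 145 and 150 TPM in siR_Nostrill cells. With IFN-γ the values were 186, 193 and 197 TPM in siR_Ctrl cells and 222, 224 and 229 TPM in siR_Nostrill cells. None of the 4 groups overlapped with another.

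H2-T23, the Qa-1 heavy chain, was lower, at 50.5, 58.3 and 64.2 TPM in siR_Ctrl cells and 80.1, 84.3 and 83.0 TPM in siR_Nostrill cells. IFN-γ brought it to 170, 195 and 188 TPM in siR_Ctrl cells and 165, 183 and 194 TPM in siR_Nostrill cells. The siR_Nostrill libraries were all higher without IFN-γ, and the ranges overlapped with it.

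H2-M3 was scarce, at 11.6, 14.1 and 15.5 TPM in siR_Ctrl cells and 14.4, 13.4 and 14.5 TPM in siR_Nostrill cells. With IFN-γ it was at 26.96, 28.06 and 29.53 TPM in siR_Ctrl cells and at 26.3, 28.5 and 28.5 TPM in siR_Nostrill cells. The siRNA groups overlapped in both states.

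Nlrc5 was scarce without IFN-γ, at 1.16, 0.54 and 0.61 TPM in siR_Ctrl cells (87, 53 and 55 reads) and 0.68, 0.59 and 0.88 TPM in siR_Nostrill cells (66, 61 and 81 reads). With IFN-γ it reached 18.9, 13.8 and 26.3 TPM in siR_Ctrl cells (1791, 1523 and 2288 reads) and 24.0, 24.9 and 19.7 TPM in siR_Nostrill cells (2058, 2123 and 1797 reads). Libraries with and without IFN-γ were far apart, and the siRNA groups overlapped.

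**Figure D1:**
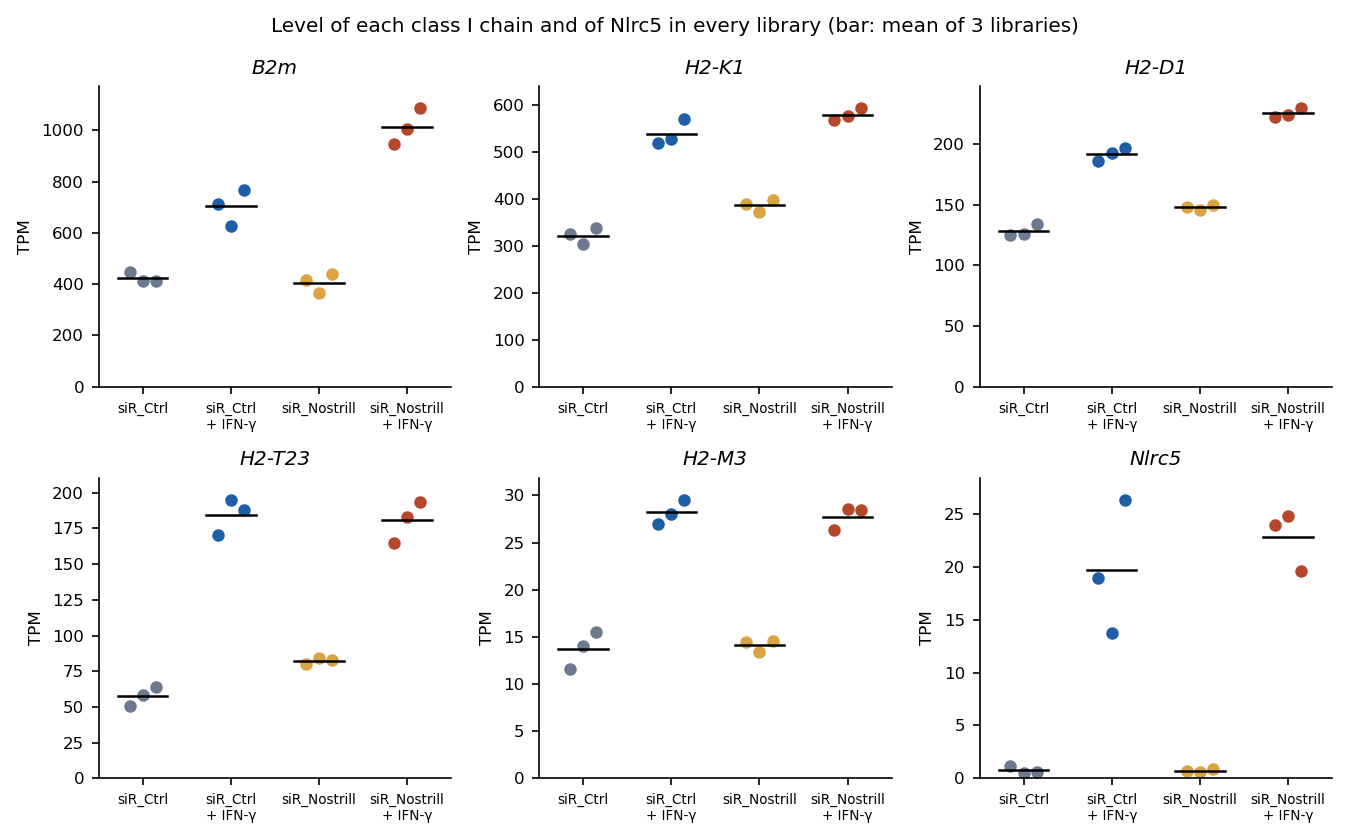
TPM (y axis, from 0) of the 6 transcripts in every library of the 4 groups (x axis); points are libraries and bars the means of 3. All IFN-γ libraries lie above all libraries without IFN-γ for each transcript of the same siRNA, and B2m with IFN-γ is at 947 to 1085 TPM in siR_Nostrill cells against 627 to 767 TPM in siR_Ctrl cells.

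The order of the levels was B2m, H2-K1, H2-D1, H2-T23, H2-M3 and Nlrc5 in every group, by the mean of TPM. Neighbours in this order were separated in all libraries of a group, apart from H2-D1 and H2-T23 in siR_Ctrl + IFN-γ cells and B2m and H2-K1 in siR_Nostrill cells, whose ranges overlapped. Summed over the 4 heavy chains, the level was 522 ± 25.9 TPM in siR_Ctrl, 944 ± 41.9 in siR_Ctrl + IFN-γ, 631 ± 15.0 in siR_Nostrill and 1013 ± 31.7 TPM once these also had IFN-γ (mean ± SD, n = 3). The spread between libraries was widest for Nlrc5, with a coefficient of variation of 32.2% in siR_Ctrl + IFN-γ cells against 10.02% for B2m and 2.97% to 6.92% for the heavy chains. Within that group Nlrc5 was lowest in the library with the highest FPKM sum (794809) and highest in the one with the lowest (634933), and its effective length of 7286 bases was the longest of the 6, against 622 for B2m and 1082 to 1500 for the heavy chains.

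The first comparison asked what IFN-γ did to these transcripts in cells with the control siRNA. All 6 rose in siR_Ctrl cells, in a test in which 4.71% of the 11900 genes were called higher (edgeR's quasi-likelihood test, Benjamini-Hochberg adjusted p below 0.05). Nlrc5 rose most, with a log2 fold change of 4.85 (SE 0.19, adjusted p = 8.3e-09 with edgeR), that is 28.9-fold in the fit. H2-T23 followed with 1.83 (SE 0.21, adjusted p = 0.00016 with edgeR) and H2-M3 with 1.18 (SE 0.19, adjusted p = 0.0028 with edgeR). The classical heavy chains and the light chain rose by similar amounts. H2-K1 had a log2 fold change of 0.92 (SE 0.14, adjusted p = 0.0018 with edgeR), B2m one of 0.87 (SE 0.13, adjusted p = 0.0011) and H2-D1 one of 0.74 (SE 0.15, adjusted p = 0.014). In bulk RNA, a change in the number of expressing cells and a change in RNA per cell cannot be told apart. When only the siR_Ctrl and siR_Ctrl + IFN-γ libraries entered the edgeR fit, H2-D1 (adjusted p = 0.13) and H2-M3 (adjusted p = 0.060) no longer passed, at log2 fold changes of 0.74 and 1.18.

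In siR_Nostrill cells IFN-γ raised Nlrc5, B2m, H2-T23 and H2-M3, 4 of the 6, in a test in which 5.24% of genes were called higher. Nlrc5 had a log2 fold change of 4.83 (SE 0.18, adjusted p = 8.0e-09 with edgeR), nearly that in siR_Ctrl cells. B2m was second with 1.16 (SE 0.13, adjusted p = 0.00011 with edgeR), ahead of H2-T23 with 0.97 (SE 0.21, adjusted p = 0.015) and H2-M3 with 0.81 (SE 0.19, adjusted p = 0.028). The classical heavy chains did not pass. H2-D1 had a log2 fold change of 0.44 (95% interval 0.10 to 0.78, adjusted p = 0.12 with edgeR) and H2-K1 one of 0.43 (0.12 to 0.75, adjusted p = 0.11), while in TPM all 6 transcripts had every IFN-γ library above every library without it, as had 20.3% of the genes tested (5.23% in siR_Ctrl cells, where the same held for all 6). H2-K1 passed in 7 and H2-D1 in 6 of 11 other settings, not counting those that left out 1 library. Both passed in edgeR once the length trend of each library was removed, H2-K1 at 0.57 (adjusted p = 0.00011) and H2-D1 at 0.55 (adjusted p = 0.0012). In that setting 1158 of 11900 genes were called higher. The 4 calls fell to 2 without siR_Nostrill replicate 1, siR_Nostrill replicate 3, siR_Nostrill + IFN-γ replicate 2 or siR_Nostrill + IFN-γ replicate 3. B2m and Nlrc5 passed each time, with edgeR adjusted p of at most 0.0014 for B2m and at most 5.6e-07 for Nlrc5 whichever library was left out, and adjusted p reached 0.067 for H2-T23 and 0.10 for H2-M3.

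The difference between these responses was then tested as an interaction. It called 0 of the 6 transcripts and 0 of the 11900 genes (0%) with edgeR's quasi-likelihood test, with 1277 genes at an unadjusted p below 0.05, and DESeq2 also called 0. H2-T23 had the largest interaction among the 6, a log2 difference of -0.86 (SE 0.29, unadjusted p = 0.013, adjusted p = 0.43 with edgeR). For H2-K1 it was -0.49 (SE 0.20, unadjusted p = 0.033, adjusted p = 0.43 with edgeR). B2m pointed the other way, at 0.29 (SE 0.18, unadjusted p = 0.14, adjusted p = 0.44 with edgeR), and Nlrc5 was at -0.02 (95% interval -0.55 to 0.51), a value that changed sign in some settings. H2-D1 and H2-M3 were at -0.30 and -0.37, and both turned positive, to 0.05 and 0.02, when the TPM to FPKM ratio of each library was added as a covariate. Leaving out 1 library moved the interaction to between 0.17 and 0.39 for B2m (lowest without siR_Nostrill + IFN-γ replicate 3 or siR_Ctrl replicate 2), between -0.39 and -0.15 for H2-D1 and between -0.50 and -0.16 for H2-M3 (both nearest 0 when siR_Ctrl replicate 1 was left out, or replicate 2 of siR_Ctrl + IFN-γ).

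**Figure D2:**
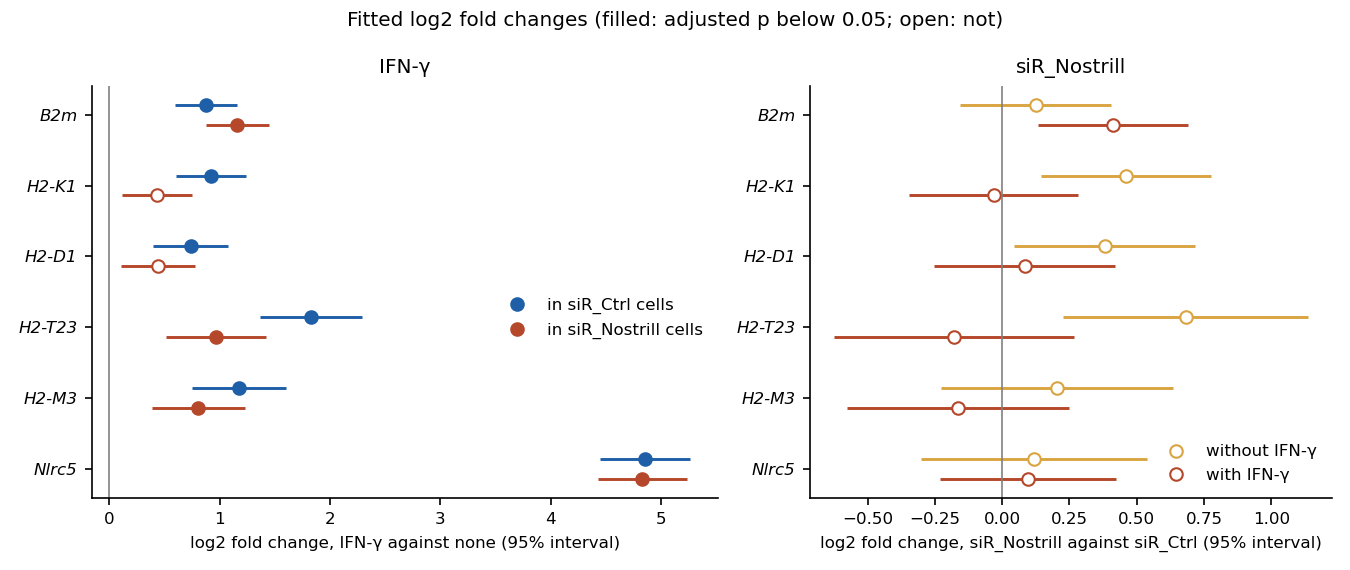
Fitted log2 fold changes (x axes) with 95% intervals for the 6 transcripts; left, IFN-γ against none in siR_Ctrl (blue) and siR_Nostrill (red) cells, and right, siR_Nostrill against siR_Ctrl without (yellow) and with (red) IFN-γ. Filled points passed an adjusted p of 0.05 in edgeR: 6 of 6 for IFN-γ in siR_Ctrl cells, 4 of 6 in siR_Nostrill cells and 0 of 6 in both siRNA comparisons.

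The study also compared siR_Nostrill with siR_Ctrl cells in each IFN-γ state, and the same was done for these transcripts. Such a comparison gives the siRNA difference within a state, whereas a change in the IFN-γ response is the interaction above. Without IFN-γ, H2-K1, H2-D1 and H2-T23 had every siR_Nostrill library above every siR_Ctrl library in TPM, as had 4.58% of the genes tested. In the fit none of the 6 passed, where 0.218% of genes were called (26 of 11900 with edgeR, 1643 at an unadjusted p below 0.05, and 265 of 10342 with DESeq2). H2-T23 had a log2 fold change of 0.68 (95% interval 0.23 to 1.14, unadjusted p = 0.0070, adjusted p = 0.23 with edgeR). That of H2-K1 was 0.46 (0.15 to 0.78, unadjusted p = 0.0081, adjusted p = 0.24 with edgeR) and that of H2-D1 was 0.38 (0.04 to 0.72, unadjusted p = 0.030, adjusted p = 0.33). Leaving out 1 library moved the value of H2-D1 to between 0.24 and 0.48. With the length trend removed, edgeR called H2-T23 (0.50, adjusted p = 0.029) and H2-K1 (0.32, adjusted p = 0.043) higher in siR_Nostrill cells, at smaller fold changes and in a setting that called 312 of 11900 genes. Values for H2-M3 (0.20), B2m (0.12) and Nlrc5 (0.12) were close to 0, and those of B2m and H2-M3 changed sign in some settings, B2m to -0.18 with the length trend removed.

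With IFN-γ present, B2m and H2-D1 had every siR_Nostrill library above every siR_Ctrl library in TPM. B2m was 1.33-fold as high in siR_Nostrill + IFN-γ as in siR_Ctrl + IFN-γ cells in the fit, a log2 fold change of 0.41 (95% interval 0.13 to 0.69, unadjusted p = 0.0078, adjusted p = 0.16 with edgeR). It passed in edgeR with the length trend removed, at 0.46 (adjusted p = 0.015), where 1170 of 11900 genes were called. For H2-D1 the ratio of the mean TPM was 1.17, but the fold in the fit on counts was 1.06 (log2 fold change 0.08, adjusted p = 0.85 with edgeR), and it was -0.01 on the log2 scale without siR_Ctrl + IFN-γ replicate 3. That 2 of the 6 had all siR_Nostrill libraries higher has to be read against 14.1% of all genes tested with the same separation in TPM. None of the 6 was called in this comparison, in which 0.429% of genes were (51 of 11900 with edgeR, 1730 at an unadjusted p below 0.05, and 596 of 10923 with DESeq2). H2-K1 (-0.03), H2-M3 (-0.16), H2-T23 (-0.18) and Nlrc5 (0.10) lay near 0, and of these H2-K1, H2-T23 and Nlrc5 changed sign in some settings. The 4 of 7 leukocyte markers listed summed to 2.73 to 3.34 TPM in siR_Nostrill + IFN-γ and 1.95 to 2.71 TPM in siR_Ctrl + IFN-γ libraries (1.67 to 2.42 and 1.46 to 2.91 TPM in siR_Ctrl and siR_Nostrill libraries). Ptprc, the pan-leukocyte marker, was at most 0.02 TPM. The 1 leukocyte marker that entered the fit was not called in this comparison, at a log2 fold change of 0.31 with edgeR. Cd68 was the one of the 4 above 1 TPM, and whether it bears on the values of the 6 transcripts was not tested.

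Averaged over both states, siR_Nostrill cells differed in 2.16% of genes and in 0 of the 6 transcripts (1969 genes at an unadjusted p below 0.05 with edgeR, and 784 of 11794 called with DESeq2). B2m had the lowest p, with a log2 fold change of 0.27 (SE 0.09, unadjusted p = 0.012, adjusted p = 0.15 with edgeR).

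B2m serves every heavy chain, so each heavy chain was next expressed as a ratio to B2m within the same library, in which library size cancels out. The H2-K1 ratio was 0.728, 0.740 and 0.815 in siR_Ctrl libraries and 0.938, 1.02 and 0.907 in siR_Nostrill libraries. With IFN-γ it was 0.727, 0.841 and 0.745 in siR_Ctrl libraries and 0.600, 0.575 and 0.547 in siR_Nostrill libraries. The siR_Nostrill ratio was therefore above that of siR_Ctrl cells without IFN-γ and below it with IFN-γ, with no overlap in either state.

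H2-D1 showed the same order, with 0.281, 0.306 and 0.324 in siR_Ctrl, 0.356, 0.400 and 0.341 in siR_Nostrill, 0.260, 0.307 and 0.257 in siR_Ctrl + IFN-γ and 0.235, 0.223 and 0.211 in siR_Nostrill + IFN-γ libraries. The H2-T23 ratio was 0.113, 0.142 and 0.155 in siR_Ctrl libraries, 0.193, 0.232 and 0.189 in siR_Nostrill, 0.238, 0.311 and 0.245 in siR_Ctrl + IFN-γ, and 0.174, 0.182 and 0.179 in siR_Nostrill + IFN-γ libraries. For both chains the siRNA groups did not overlap in either state. The summed heavy chains exceeded B2m in 11 of 12 libraries, with ratios of 1.15 to 1.33 in siR_Ctrl, 1.263 to 1.504 in siR_Ctrl + IFN-γ, 1.47 to 1.69 in siR_Nostrill and 0.963 to 1.04 in siR_Nostrill + IFN-γ libraries.

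On the log2 scale, siR_Nostrill against siR_Ctrl changed the H2-K1 ratio by 0.33 without IFN-γ and by -0.42 with it, a difference of -0.75. For H2-D1 the changes were 0.27 and -0.30 (difference -0.57), and for H2-T23 they were 0.59 and -0.56 (difference -1.15). The ratio of the heavy chain sum changed by 0.34 and -0.43 (difference -0.77). Each of these 4 differences had p = 0.005 in a two-sided exact permutation test with siRNA labels exchanged within each IFN-γ state, the smallest value that 400 arrangements can give, and an adjusted p of 0.018 over 18 tests. This test was added after the values had been seen. Full separation in opposite directions always gives it its smallest p, so p and adjusted p restate the separation already seen. The 4 are not independent, since they share B2m as denominator and the sum holds the other 3 chains. Over 11833 genes with TPM above 0 in every library, the same ratio to B2m had a median difference of -0.27. A difference below 0 at p = 0.005 in the same exact permutation test was found for 2.55%. These are the genes with the siR_Nostrill libraries all higher without IFN-γ and all lower with it (302 genes by either description). The H2-M3 ratio changed by 0.12 and -0.55 (difference -0.67, exact permutation p = 0.035, adjusted p = 0.090), and the Nlrc5 ratio by 0.03 and -0.27 (difference -0.30, exact permutation p = 0.45, adjusted p = 0.68).

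The 4 differences were at least as large once the length trend was removed, at -0.97 for H2-K1, -0.82 for H2-D1, -1.28 for H2-T23 and -0.97 for the sum, and that of Nlrc5 then passed too, at -1.17 (exact permutation p = 0.005, adjusted p = 0.015). With the replicate number as a block none of the 6 differences passed, and these 4 had an exact permutation p of 0.031, the smallest that 64 arrangements can give (adjusted p = 0.11). For the sum over all 17 listed H2 class I genes the difference was -0.75 (exact permutation p = 0.005). Leaving out each library in turn gave values from -0.80 to -0.69 for H2-K1 and from -1.25 to -1.02 for H2-T23. The averages of the siRNA changes over both states were -0.22 to 0.01 (exact permutation p from 0.13 to 0.98), and none of the 12 planned tests of a ratio, over 6 ratios, passed after adjustment over the 12. Of those 12, the IFN-γ effect on the Nlrc5 ratio (3.83, exact permutation p = 0.005, adjusted p = 0.060) and on the H2-D1 ratio (-0.43, exact permutation p = 0.015, adjusted p = 0.090) had the lowest p. Adjusted over all 18 tests, as the added ones were, these 2 had adjusted p of 0.018 and 0.045. These values are lower only because the tests added after the values had been seen, 4 of them at the smallest p, joined the adjustment. They are therefore no support beyond the 12 planned tests. With the replicate number as a block neither passed over 18 tests (exact permutation, adjusted p = 0.11 for Nlrc5 and 0.19 for H2-D1). H2-D1 also failed to pass with the length trend removed (adjusted p = 0.15) and without some single libraries, such as siR_Ctrl replicate 3 (adjusted p = 0.077).

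**Figure D3:**
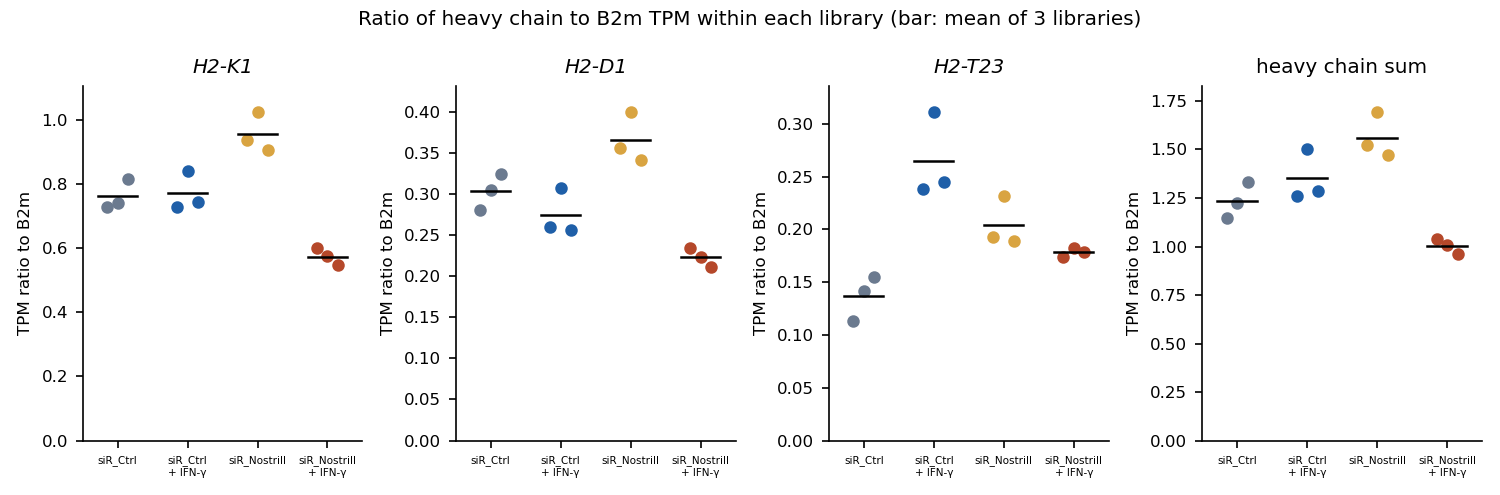
Ratio of TPM to that of B2m in the same library (y axes, from 0) for H2-K1, H2-D1, H2-T23 and the sum of the 4 heavy chains, in the 4 groups (x axis); points are libraries and bars the means of 3. The siR_Nostrill points are above the siR_Ctrl points without IFN-γ and below them with IFN-γ, for H2-K1 at 0.907 to 1.02 against 0.728 to 0.815 and then 0.547 to 0.600 against 0.727 to 0.841.

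Other H2 class I genes moved in the same direction with IFN-γ. Of 24 on the list, 13 were listed in the tables and 8 tested, and 6 of the 8 rose in siR_Ctrl cells with none lower (median log2 fold change 1.03, against -0.01 over all genes tested). H2-T24 had a log2 fold change of 1.92 (SE 0.13), H2-Q4 of 1.48 (SE 0.11), H2-Q6 of 1.42 (SE 0.35) and H2-T22 of 1.07 (SE 0.14), all with an edgeR adjusted p of at most 0.039. H2-T22 and H2-Q4 were abundant, at 114 to 123 TPM and 82.9 to 99.5 TPM in siR_Ctrl cells and at 221 to 226 TPM and 218 to 244 TPM with IFN-γ. In siR_Nostrill cells 3 of the 8 rose. Of all genes tested, 4.71% were called higher in siR_Ctrl cells and 5.24% in siR_Nostrill cells. Estimated counts were whole in all libraries for 1 of the 13 listed genes. The class I-like genes outside H2 had 0 of 5 tested called in siR_Ctrl cells (median 0.14, and 0 at an unadjusted p below 0.05). In siR_Nostrill cells Mr1, which presents vitamin B metabolites to MAIT cells, rose by 0.54 (SE 0.13, adjusted p = 0.025 with edgeR).

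Of 13 genes that cut, transport and load the peptides, all tested, 10 rose in siR_Ctrl cells and 8 in siR_Nostrill cells. None was lower (median log2 fold changes 1.46 and 1.32). Over all genes tested, 4.71% and 5.24% were called higher. Tap1, a subunit of the peptide transporter, went from 2.86 to 5.39 TPM without IFN-γ to 133 to 169 TPM with it in siR_Ctrl cells, a log2 fold change of 5.37 (SE 0.20, adjusted p = 8.1e-09 with edgeR). Psmb9, a subunit of the immunoproteasome, had 5.32 (SE 0.27), Tap2, the other transporter subunit, 3.05 (SE 0.14), and Psmb8, another immunoproteasome subunit, 3.04 (SE 0.24), each with an edgeR adjusted p of at most 4.4e-06. The chaperones Calr (-0.13), Canx (-0.12) and Pdia3 (0.03), which fold many glycoproteins besides class I chains, did not pass.

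Among 14 regulators of class I genes, 5 rose in siR_Ctrl cells and 6 in siR_Nostrill cells, with none lower (4.71% and 5.24% of all genes tested were called higher). Irf1, a transcription factor that binds the IRF letters, had a log2 fold change of 3.57 (SE 0.10, adjusted p = 8.5e-10 with edgeR), and Irf2, a related factor, had 1.25 (SE 0.21, adjusted p = 0.0039) although its libraries overlapped in TPM. Ciita, the class II counterpart of Nlrc5, had 2.08 (SE 0.25, adjusted p = 0.00021 with edgeR) but stayed at 0.25 to 0.26 TPM with IFN-γ, against 13.8 to 26.3 TPM of Nlrc5 in the same cells. Rfx5, a subunit of the RFX complex on the X box, had 0.56 in siR_Ctrl cells (SE 0.20, adjusted p = 0.18 with edgeR) and 0.86 in siR_Nostrill cells (SE 0.20, adjusted p = 0.022). Its partners Rfxap and Rfxank did not pass, at 0.23 and -0.01 in siR_Ctrl cells and at -0.47 and -0.26 in siR_Nostrill cells. For siR_Nostrill against siR_Ctrl, with or without IFN-γ, none of the genes tested on these 4 lists was called by edgeR.

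**Figure D4:**
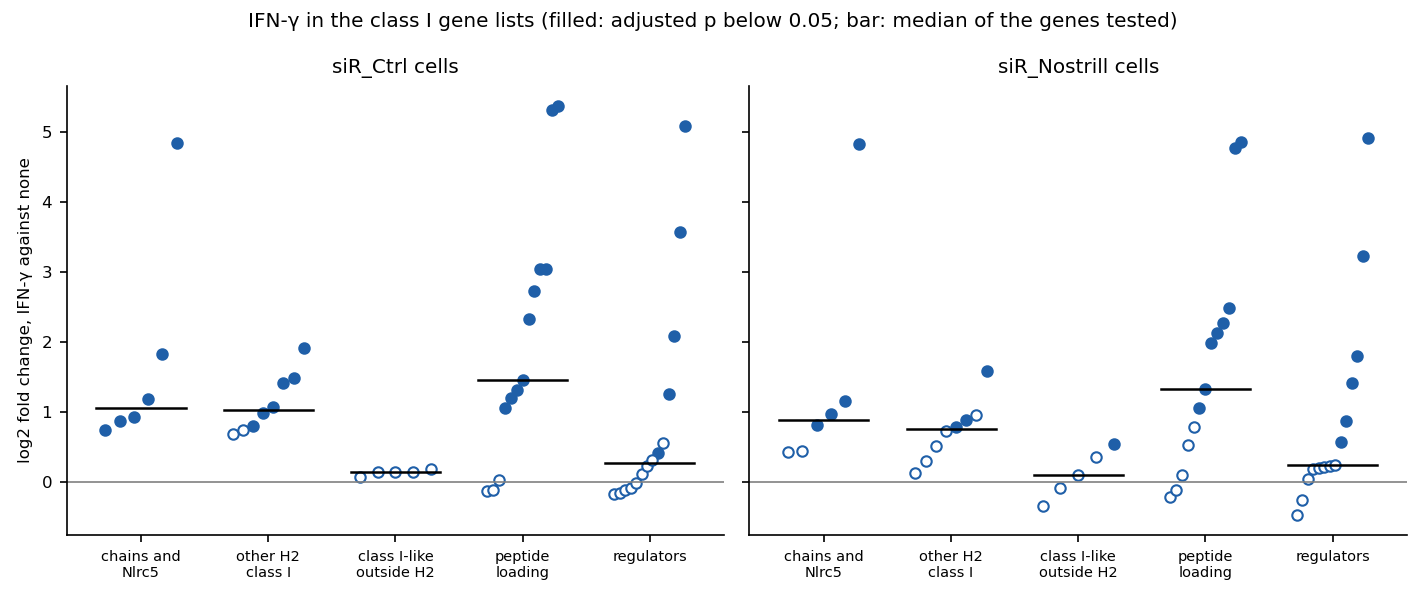
Log2 fold changes with IFN-γ (y axis) of the genes tested on 5 lists (x axis), in siR_Ctrl cells (left) and siR_Nostrill cells (right); filled points passed an adjusted p of 0.05 in edgeR, and bars are medians. In siR_Ctrl cells the medians are 1.05 for the chains and Nlrc5, 1.03 for other H2 class I genes, 0.14 for class I-like genes outside H2, 1.46 for peptide loading and 0.27 for regulators.

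The genes most like each transcript over the 12 libraries were found by the smallest root mean square difference of centred log2 CPM, among 10697 genes with an average log2 CPM above 1. H2-K1 and H2-D1 were close to each other (0.072), and the nearest other genes were Ninj1 and Tbrg1 for both (0.083 and 0.097 for H2-K1, 0.084 and 0.069 for H2-D1). H2-M3 was nearest to H2-T22 (0.11), and then to Pik3ip1 and Steap1. Nearest to H2-T23 were Apol9b (0.085), Bst2 (0.10) and Apol9a (0.11), all known as interferon-stimulated genes. For Nlrc5 they were the interferon-inducible GTPase Irgm1 (0.22) and Parp14 (0.22). B2m was nearest to Hoxd8 (0.12), St6galnac4 and Fbxw17 (both 0.14), and it lay farther from H2-M3 (0.24), H2-K1 (0.27) and H2-D1 (0.27) than from these.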

How the data were processed

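Poly(A) RNA was sequenced with paired ends on a DNBSEQ platform. The study's methods name SOAPnuke for filtering and HISAT2 and Bowtie2 for alignment, with GRCm38.p6 as the genome. No source used here names the counting tool. The authors deposited, for each library, estimated counts, FPKM and TPM, with the estimated counts not normalized and FPKM and TPM scaled for transcript length.

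Counts were rounded and fitted with edgeR 4.0.16 (quasi-likelihood test, TMM, default filter, all 12 libraries, Benjamini-Hochberg adjustment over 11900 genes, threshold 0.05) in R 4.3.3. The fit was first tested on simulated data. Heavy chain to B2m ratios of TPM were tested by exact permutation within strata, with adjustment over the 12 planned tests, or 18 with the 6 added after seeing the data. Coordinates and promoter windows are from RefSeq (GRCm38.p6).

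Alternatives were DESeq2 1.42.0, its size factors in edgeR, other filters (none, or a mean of 5 CPM), the groups compared alone, the replicate block, limma 3.58.1 on log2(FPKM + 1) or log2(FPKM + 0.1), removal of a lowess length trend (span 0.3), the ratio of TPM to FPKM as covariate, and each library left out. Members, lists and tests were chosen with earlier results of these data known. Named were all 6 members, up to 4 called genes per list with the largest IFN-γ fold change in siR_Ctrl cells, Irf1, Ciita, Rfx5 and the 3 nearest genes of each member. Mr1, Calr, Canx, Pdia3, Rfxap and Rfxank were named after their values were seen. Nostrill was not analysed here, and some genes that the rule names are not reported here.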

Additional observations from a re-analysis of the deposited data

Results flagged for a closer look

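In the H2-K1, H2-D1, H2-T23 and heavy chain sum ratios to B2m, the siRNA groups separated in opposite directions with and without IFN-γ. A test of the difference between the 2 states was added after the values had been seen. Full separation in opposite directions always gives that test its smallest p, so its p restates the separation. The interaction fit with edgeR called 0 of the 6 transcripts. The log2 difference (with minus without IFN-γ) was -0.75 for H2-K1, -0.57 for H2-D1, -1.15 for H2-T23 and -0.77 for the sum of the 4 heavy chains, each with exact permutation p = 0.005. These ratios share B2m as denominator, and over 11833 genes the median difference of the ratio to B2m was -0.27, with 2.55% of genes below 0 at the same p in the same exact permutation test. With the replicate number as a block each had an exact permutation p of 0.031 (adjusted p = 0.11), the smallest that test can give. In these 4 ratios the siRNA groups did not overlap in either IFN-γ state, with all 3 siR_Nostrill libraries higher without IFN-γ and all 3 lower with it. The remaining heavy chain, H2-M3, did not pass (difference -0.67, exact permutation p = 0.035, adjusted p = 0.090). Its siRNA groups overlapped without IFN-γ. The sums of FPKM, which differ between libraries, overlapped between all groups. They were 570935 to 735100 in siR_Ctrl, 634933 to 794809 in siR_Ctrl + IFN-γ, 681211 to 784574 in siR_Nostrill and 647111 to 698317 in siR_Nostrill + IFN-γ libraries. The library with the highest sum also had the highest H2-K1 ratio in siR_Ctrl + IFN-γ (0.841) and siR_Nostrill (1.02) cells, but not in the other groups. Whether the sums bear on the ratios was not tested, and no ratio was tested with the TPM to FPKM ratio as covariate.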

How the results depend on the processing

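For IFN-γ in siR_Ctrl cells all 6 transcripts were called with each library left out, where 442 to 525 of the 12015 to 12029 genes tested were called higher. In siR_Nostrill cells the number called ranged from 2 to 5 with 1 library left out, and 429 to 812 of all genes tested were called higher. Without IFN-γ, siR_Nostrill cells had 2 transcripts called with the length trend removed and 2 with the TPM to FPKM ratio as covariate, against 0 without these corrections, and with IFN-γ the numbers were 1 and 2. These settings called more genes in general, 312 and 593 of 11900 without IFN-γ and 1170 and 2738 with it, against 26 and 51. Averaged over both states, 4 transcripts were called with that covariate, and 3119 of 11900 genes against 257. The cause of these changes was not tested.

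Replicate numbers are shared between groups, and 18 correlations of same-numbered libraries' deviations from their group means ranged from -0.49 to 0.73. Deviations from any source enter these correlations, so they cannot tell whether same-numbered libraries were handled together. With the replicate block, edgeR called 6 transcripts for IFN-γ in siR_Ctrl cells, 4 in siR_Nostrill cells and 0 in the other comparisons, the same numbers as without it. Of all 11900 genes it called 555 and 690 higher with IFN-γ in siR_Ctrl and siR_Nostrill cells. For siR_Nostrill against siR_Ctrl it called 18 without IFN-γ, 32 with it and 183 on average, and 0 for the interaction. With the block, 0 of the 6 added ratio differences passed after adjustment over 18 tests, with exact permutation p from 0.031, the smallest this test can give, to 0.53. With each library left out 4 to 5 passed. Groups that separate fully stay separate when a library is dropped, so leaving out libraries cannot test the 4 ratios that were separate in both states. Of 384 other alternative fold changes, 24 passed the threshold anew, 2 no longer passed and 358 did neither.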
